A study of Mus musculus with 6 samples.

Results

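The genes described are 10 regulators of skeletal muscle atrophy, measured by RNA-seq in stretched and unstretched C2C12 cells. They were taken by symbol from the deposited table of FPKM values (fragments scaled to transcript length and to the mapped fragments of the library), and all 10 were found among its 22375 rows. They comprise the ubiquitin ligases Fbxo32 (atrogin-1), Trim63 (MuRF1), Trim54 (MuRF3), Fbxo30 (MUSA1) and Cblb, the forkhead factors Foxo1, Foxo3 and Foxo4, the secreted growth inhibitor Mstn (myostatin) and the transcription factor Klf15. They were chosen because the study concerns dysfunction of the diaphragm.

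C2C12 is an established line of mouse myoblasts, which proliferate as single cells and fuse into myotubes when serum is withdrawn. The CON group held 3 libraries of cells without stretch, and the 4H group held 3 libraries of cells kept for 4 h under cyclic loading at 15% tension. The labels name no genetic change and no agent in either group. The cells were undifferentiated, in medium with serum, and near confluence on elastic plates coated with poly-lysine. The sources used here do not say whether the CON cells grew on the same elastic plates. Replicate numbers follow the descriptions of the samples, and 4H replicates 1, 2 and 3 carry the titles 4H1, 4H3 and 4H4. Each library is labelled as a replicate sample, but nothing says that the replicates came from separate cultures, so the p values measure only the spread between these libraries.

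In muscle fibers, the FOXO factors switch on the genes of protein breakdown. The kinase AKT, which acts downstream of insulin and IGF receptors, phosphorylates FOXO proteins and keeps them out of the nucleus. Fbxo32 and Trim63 are the best known FOXO targets, and their products mark muscle proteins for the proteasome. Myostatin signals through activin receptors and SMAD proteins and restrains muscle growth, and glucocorticoids induce Klf15, which acts together with the glucocorticoid receptor in wasting muscle. Changes in the protein, phosphorylation or nuclear entry of these factors are not seen by RNA-seq.

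The libraries had the markers of proliferating myoblasts. All 9 genes of that marker list were above the filter used for testing, and their FPKM summed to 303 to 311 per library in the CON group and 386 to 399 in the 4H group, with 6 higher and 1 lower by the test described below, by which 22.6% of all genes tested were higher and 24.1% lower. Itga7, a laminin receptor subunit, rose from 55.9 to 102 FPKM (an exon overlaps a gene on the other strand), and Myf5, a myoblast determination factor, fell from 15.8 to 9.82 FPKM. Of the 15 markers of differentiated myotubes, 4 passed the filter and 3 were listed at 0 in every library (Mymx, Myh8 and Actc1), and the list summed to 5.72 to 7.94 FPKM in unstretched and 7.54 to 8.73 FPKM in stretched libraries. Of the 4 tested, 2 rose and none fell (same background), namely Mymk, a membrane activator of fusion, from 0.525 to 1.01 FPKM, and Acta1, skeletal actin, from 1.10 to 1.87 FPKM. Of the Acta1 stretches of 75 bases, 0.394% recur in Actb and in Gm47692, and Actb was at 1062 and 1905 FPKM. Mylpf and Tnnc1 were not called, with means of 1.17 and 0.752 FPKM for Mylpf. The number of calls in this list was 0 without 4H replicate 2 or with quantile normalization, and 1 without CON replicate 1, 2 or 3 or without 4H replicate 1. Of the markers under the filter, 4 did not overlap between the groups. The same held for 56.7% of the genes tested, all above the filter, and no such share was computed for genes under it. Of these 4 markers, Ttn, Casq2 and Tnnt3 had 4H libraries that all lay above the CON ones, with means of 0.198 and 0.522 FPKM for Ttn. Myog, the factor that starts differentiation, was lower, at 0.281, 0.136 and 0.235 FPKM without stretch and at 0.0794, 0 and 0 FPKM with it. Myl1, with means of 0.281 and 0.129 FPKM, overlapped. Of 8 endothelial, blood and epithelial markers, Ptprc, Epcam and Adgre1 were listed at 0 throughout, and 1 passed the filter, Cd68, at 7.57 ± 0.892 and 16.4 ± 1.29 FPKM, while the list summed to 6.96 to 8.60 FPKM in CON cells and 15.5 to 18.0 FPKM in 4H cells. Of 9 fibroblast and adipogenic markers, 4 passed the filter, Plin1 was listed at 0 in all libraries, and the list summed to 20.7 to 22.3 and 24.7 to 25.8 FPKM in the same order. Pdgfra and Pparg rose, with log2 fold changes of 0.62 and 0.36, and Cebpa fell (-0.45), against the same background, and exons of Pdgfra and Cebpa overlap other annotated genes. The part of these cell states in the results below was not tested. In such bulk samples, fewer cells that express a gene and less RNA per cell cannot be told apart.

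The 250 bases before the transcription start are shown for Klf15, which changed most, and for Trim63 and Mstn, the pair with almost no transcript. The sequences are those of RefSeq on GRCm38.p6, read 5′ to 3′ on the strand of the gene, and 8 of the 10 genes had an entry there. In Trim63 (chr4:134314870-134315119, plus strand), the capitals mark the forkhead letters TGTTTAC and the glucocorticoid receptor letters TGTTCT. In Klf15 (chr6:90462326-90462575, plus strand), they mark the palindromic E-box CACGTG and the letters GGGTG, the reverse complement of the CACCC that KLF and SP factors bind. In Mstn (chr1:53061390-53061639, plus strand), they mark the E-box CANNTG, which MyoD and its relatives bind.
Trim63: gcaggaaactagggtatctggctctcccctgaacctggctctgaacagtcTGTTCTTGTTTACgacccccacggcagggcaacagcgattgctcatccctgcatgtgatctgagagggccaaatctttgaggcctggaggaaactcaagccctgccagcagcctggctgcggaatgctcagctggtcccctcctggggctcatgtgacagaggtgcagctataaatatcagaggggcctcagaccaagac
Klf15: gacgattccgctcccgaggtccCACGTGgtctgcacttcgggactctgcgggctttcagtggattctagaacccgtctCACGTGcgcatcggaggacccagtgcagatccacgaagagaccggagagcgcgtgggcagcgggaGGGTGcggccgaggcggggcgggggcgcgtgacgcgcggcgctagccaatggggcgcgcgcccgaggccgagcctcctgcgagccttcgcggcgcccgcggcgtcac
Mstn: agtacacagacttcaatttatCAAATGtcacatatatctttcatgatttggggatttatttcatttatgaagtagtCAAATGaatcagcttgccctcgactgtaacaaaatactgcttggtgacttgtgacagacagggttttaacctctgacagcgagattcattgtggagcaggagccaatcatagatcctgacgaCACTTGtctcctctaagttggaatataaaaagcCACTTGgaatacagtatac

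In Trim63 the glucocorticoid receptor letters began at position -200 from the start and the forkhead letters at position -194, with no base between them. The same window also held the E-box CANNTG, left in lower case, at positions -149, -72 and -50. Searched on both strands in the windows of all 32851 RefSeq promoters, the forkhead letters were in 3.17%, the glucocorticoid receptor letters in 16.1%, both in 0.691%, and this side-by-side order in 1, that of Trim63, a count made after the letters were seen. None of the other 7 windows held the forkhead letters. The Klf15 window held CACGTG at positions -228 and -172, and 0.429% of all promoters held it at least 2 times. This motif was added to the search after the letters were seen, and it lies within CANNTG, which 66.2% of all promoters held. The letters CACCC were in 52.0% of all promoters. A match gives the letters of the window and not a bound site.

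The levels of the genes spread widely in unstretched cells. FPKM is scaled to transcript length, so levels can be set side by side between genes. Fbxo30, the ligase described in denervated and fasted muscle, was the highest, with a CON mean of 13.8 ± 0.0553 FPKM (SD, n = 3), above 54.2% of all genes tested. Trim54, Cblb, Foxo4 and Foxo3 followed at 6.19, 6.07, 5.85 and 5.84 FPKM, and neighbours in that order overlapped between libraries. Foxo1 at 2.50 FPKM and Klf15 at 2.15 FPKM also overlapped, and Fbxo32 was below them at 1.68 FPKM. Trim63 and Mstn were listed at 0 in all 3 CON libraries. In the 4H group the order was Fbxo30, Cblb, Trim54, Foxo3, Foxo4, Foxo1, Fbxo32 and Klf15, with only Trim54 and Foxo3, and Foxo1 and Fbxo32, overlapping as neighbours among these 8.

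**Figure D1:**
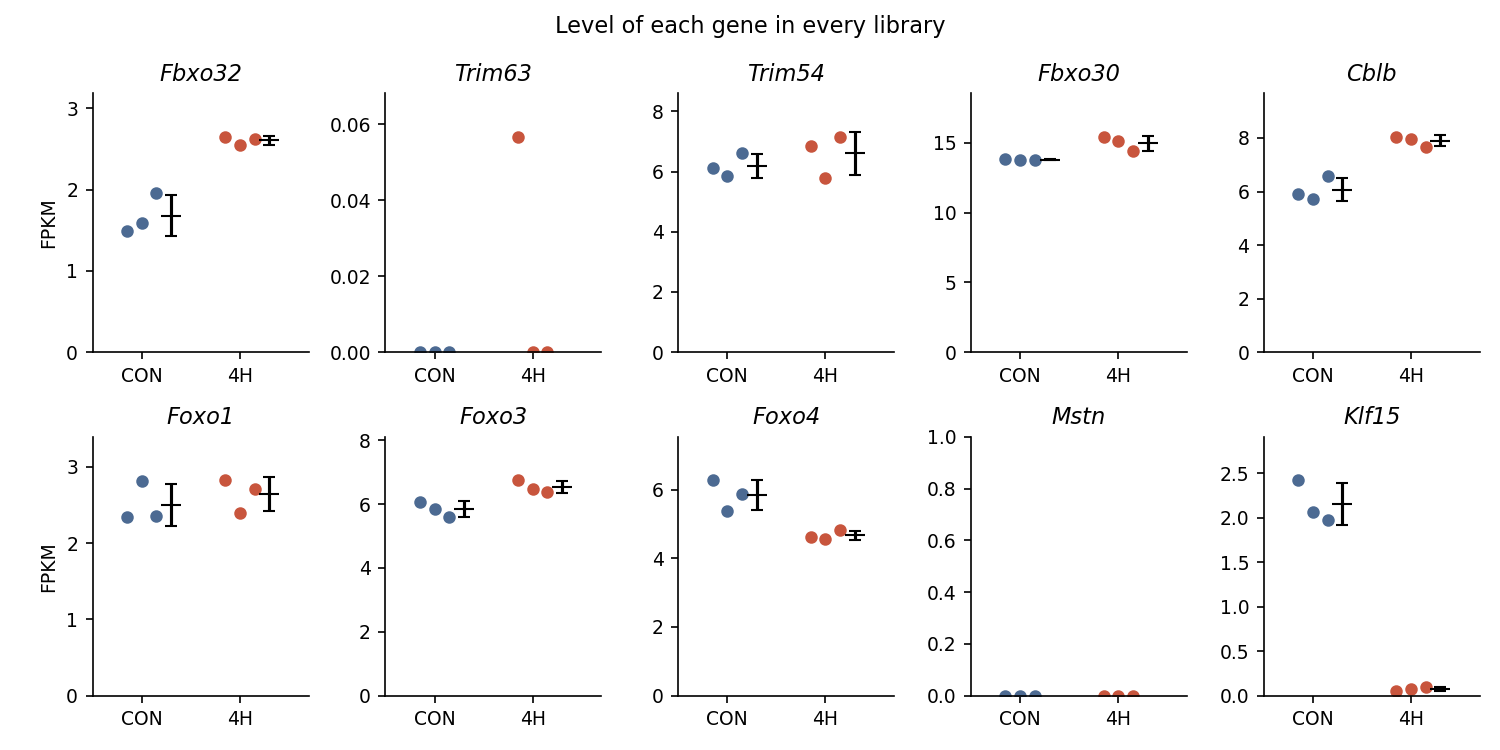
FPKM of each gene (vertical axes, linear and from 0, each with its own range) in the 3 CON and 3 4H libraries. Points are libraries, and the bars give the mean and SD for the 8 genes that were tested. Klf15 lies near 0 in all 4H libraries, Fbxo32 and Cblb lie higher there than in any CON library, and Mstn is at 0 throughout.

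The 4H group was set against the CON group by limma, run on log2(FPKM + 0.5), with Benjamini-Hochberg adjustment over the 11593 genes that had a mean of 0.5 FPKM or more in the 6 libraries. A gene was called where the adjusted p was 0.05 or less, and it was differentially expressed where its log2 fold change was also 1 or more in size, the thresholds used by the study. Of the 10 genes, 8 passed the filter. Of these 8, 4 were called, where 46.7% of all genes tested were called. The calls were 2 higher in the 4H group (background 22.6%) and 2 lower (background 24.1%). These shares are near those of all genes. Of all calls, 48.4% were higher in the 4H group, and 57.4% with libraries rescaled to TPM. Differential expression was met by 1 of the 8, Klf15, where the background was 3.88%. The groups did not overlap in 6 of the 8, where the background was 56.7%. The median log2 fold change of the 8 genes was 0.10, and that of all genes tested was -0.01.

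Klf15, which codes for a zinc finger factor of glucocorticoid and amino acid metabolism, had nearly no transcript left in stretched cells. The CON libraries held 2.42, 2.06 and 1.97 FPKM, and the 4H libraries held 0.0548, 0.0715 and 0.0953 FPKM. All 4H libraries were thus far below all CON libraries, and the lowest CON library was 20.7 times the highest 4H library. Relative to the CON mean, the 4H libraries were at 2.55%, 3.32% and 4.43%. The CON mean was 2.15 ± 0.238 FPKM and the 4H mean 0.0739 ± 0.0204 FPKM (SD, n = 3 each), a ratio of 29.1. On the log2(FPKM + 0.5) scale, which understates the change of a low gene, the log2 fold change was -2.21 (standard error 0.13, 95% interval -2.51 to -1.90, adjusted p = 5.03e-06 from limma). By this value Klf15 was number 17 of 11593 genes in the order of falls. The scale sets its size, since a pseudocount of 0.1 gave -3.70. Klf15 passed the filter through its CON level alone, and without a filter its adjusted p from limma was 1.69e-05.

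The gene lies on chromosome 6 (GENCODE M21 on GRCm38, chr6:90462576-90475238, plus strand), and its longest annotated transcript has 4 exons. It shares no exon with another annotated gene, and no stretch of 75 bases of its transcripts recurs in a transcript of another gene. The same was true of Cblb, Fbxo30, Foxo3, Foxo4, Trim63 and Mstn.

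The genes whose profile over the 6 libraries was most like that of Klf15 were Serpinb9, Slc16a1 and Slc1a5, with Pearson correlations of 0.9993, 0.9993 and 0.9992 among 8617 genes with a mean of 5 FPKM or more. Their falls were smaller on the log2 scale, at -1.35 for Serpinb9, a protease inhibitor, -0.55 for Slc16a1, a lactate transporter, and -1.02 for Slc1a5, a glutamine transporter. In 6 libraries of 2 groups such a correlation mainly follows the group difference, and 268 genes reached more than 0.99.

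**Figure D2:**
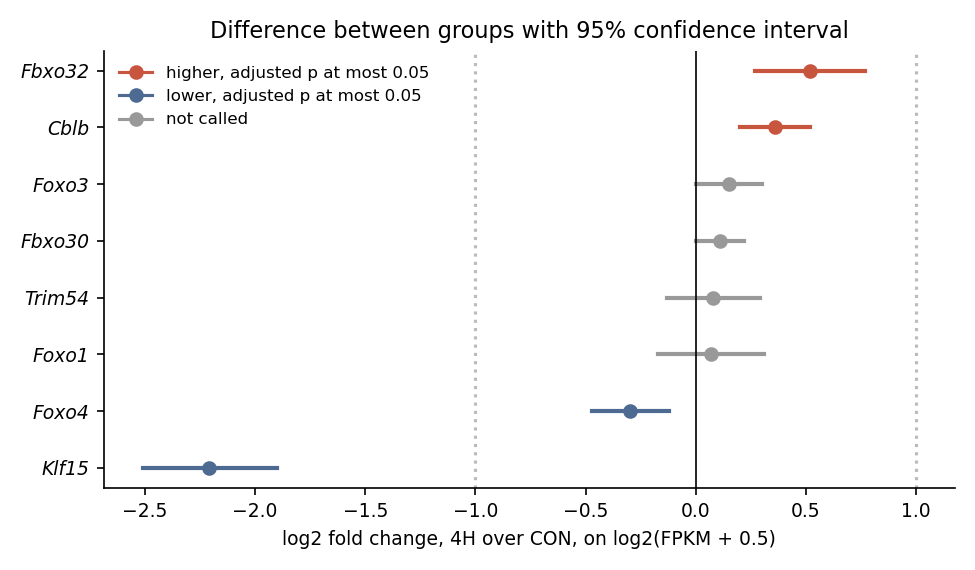
Log2 fold change of the 8 tested genes (horizontal axis, 4H over CON, on log2(FPKM + 0.5)), with lines for the 95% confidence interval of the limma fit and dotted lines at the fold threshold of the study. Klf15 is the only one beyond a dotted line, Fbxo32 and Cblb lie above 0, and Foxo4 lies below.

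Of the 4 ligases tested, 2 were called higher (background 22.6%) and none lower (background 24.1%), and differences between the ligases were not tested. Fbxo32, the F-box subunit that directs MyoD and eIF3f to degradation in atrophy, measured 1.49, 1.58 and 1.96 FPKM without stretch and 2.65, 2.55 and 2.62 FPKM after it. The 4H libraries lay close together and above every CON library, a ratio of the means of 1.55. The log2 fold change was 0.52 (standard error 0.11, 95% interval 0.27 to 0.77, adjusted p = 0.00524 from limma). With each library left out in turn it stayed between 0.46 and 0.61, with an adjusted p of 0.0196 or less.

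Cblb codes for a RING ligase that targets the insulin receptor substrate IRS1 in unloaded muscle. Its CON libraries held 5.92, 5.73 and 6.56 FPKM, and its 4H libraries 8.05, 7.98 and 7.66 FPKM, with no overlap. The log2 fold change was 0.36 (standard error 0.07, 95% interval 0.20 to 0.52, adjusted p = 0.00356 from limma). Neither Fbxo32 nor Cblb reached the fold threshold of the study.

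The CON libraries gave Fbxo30 at 13.9, 13.8 and 13.8 FPKM, and the 4H libraries gave 15.4, 15.1 and 14.4 FPKM. The groups did not overlap, but the difference was small, with a log2 fold change of 0.11 (95% interval 0.00 to 0.22) and an adjusted p of 0.0831 from limma. Trim54, a microtubule-binding member of the MuRF family, had CON values of 6.11, 5.84 and 6.61 FPKM and 4H values of 6.86, 5.78 and 7.16 FPKM. Its groups overlapped, with a log2 fold change of 0.08 (95% interval -0.13 to 0.29, adjusted p = 0.489 from limma), so a change of more than 0.29 on this scale lies outside the interval.

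Trim63, the classical atrophy ligase beside Fbxo32, was listed at 0 in 5 libraries and at 0.0568 FPKM in 4H replicate 1. It was below the filter, and no fold is given. Fbxo32 and Trim63 thus stood apart in level, with Fbxo32 above 0 in all 6 libraries. The exact permutation test of 3 libraries against 3, two-sided, cannot go below p = 0.1. It gave that value for Fbxo32, Cblb, Fbxo30, Foxo3, Foxo4 and Klf15, 0.5 for Trim54 and Foxo1, and 1 for Trim63.

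In the annotation, an exon of Fbxo32 (chr15:58175879-58214932, minus strand), of Trim54 (chr5:31116712-31137630, plus strand) and of Foxo1 (chr3:52268336-52353221, plus strand) overlaps a gene on the opposite strand, Gm15943, Gm15469 and Gm20402 respectively. The libraries were strand-specific, but whether the counting used the strand is not stated for these files, and reads of those neighbours may be part of the 3 values.

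The summed level of Foxo1, Foxo3 and Foxo4 overlapped between the groups, while the shares of Foxo3 and Foxo4 in it did not. The unstretched libraries had Foxo4 at 6.28, 5.39 and 5.88 FPKM, and the stretched ones at 4.62, 4.56 and 4.82 FPKM. Every 4H library was below every CON library, and the log2 fold change was -0.30 (standard error 0.08, 95% interval -0.47 to -0.12, adjusted p = 0.0136 from limma). Without CON replicate 1, the highest library, Foxo4 was at -0.25 and no longer called (adjusted p = 0.0502 from limma).

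Foxo3, the member most often tied to Fbxo32 induction in muscle, measured 6.08, 5.85 and 5.59 FPKM in CON cells and 6.75, 6.48 and 6.38 FPKM in 4H cells. These groups did not overlap either, but the log2 fold change of 0.15 (95% interval 0.00 to 0.30) had an adjusted p of 0.0901 from limma. Foxo1 was at 2.34, 2.82 and 2.35 FPKM and at 2.83, 2.40 and 2.71 FPKM, with overlapping groups and a log2 fold change of 0.07 (95% interval -0.17 to 0.31, adjusted p = 0.620 from limma).

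The FPKM of the 3 genes summed to 14.7, 14.1 and 13.8 in the CON libraries and to 14.2, 13.4 and 13.9 in the 4H libraries (two-sided exact permutation test, p = 0.5). Foxo4 made up 42.7%, 38.3% and 42.5% of that sum in the CON libraries and 32.5%, 33.9% and 34.6% in the 4H libraries. These Foxo4 shares did not overlap. Foxo3 made up 41.4%, 41.6% and 40.5% and then 47.5%, 48.2% and 45.9%, again without overlap. Foxo1 made up 15.9%, 20.0% and 17.0% and then 19.9%, 17.9% and 19.5%, and these shares overlapped (two-sided exact permutation test, p = 0.4). The ratio of Foxo3 to Foxo4, which no scaling of a library can alter, was 1.00 ± 0.0734 in the CON group and 1.40 ± 0.0702 in the 4H group (SD, n = 3 each, two-sided exact permutation test, p = 0.1, the smallest possible). The shares are parts of the same sum, so a lower Foxo4 share raises the others. The shares of Foxo3 and Foxo4 and their ratio are therefore not separate results.

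**Figure D3:**
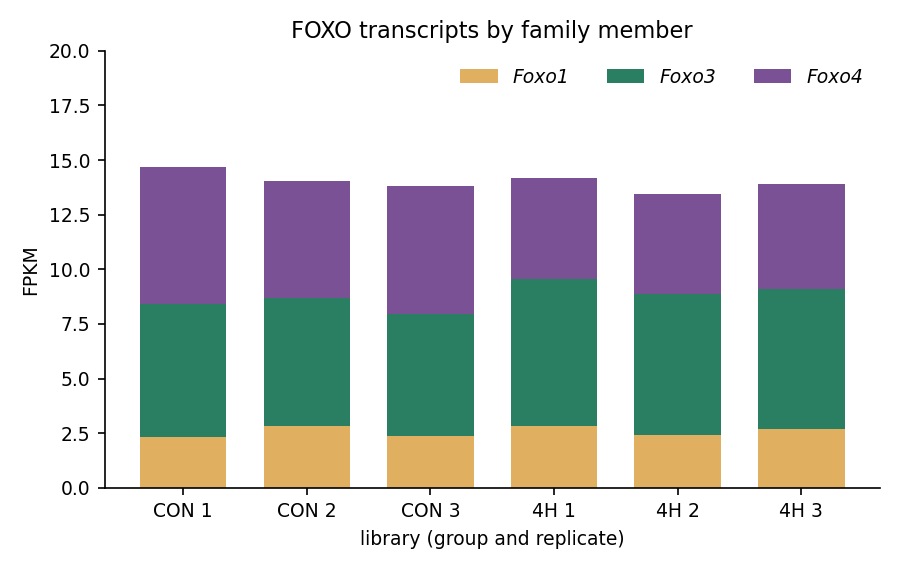
Stacked FPKM (vertical axis, from 0) of Foxo1, Foxo3 and Foxo4 in each of the 6 libraries (horizontal axis, group and replicate). The bars have similar heights, 13.4 to 14.7 FPKM, while the upper part, Foxo4, is smaller in the 3 4H libraries.

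Mstn was listed at 0 in all 6 libraries, so its change cannot be measured in these cells. Other parts of the same pathway were measured. Among 23 genes of myostatin and activin signalling, 21 passed the filter, of which 13 rose, 1 fell and 7 were not called, with a median log2 fold change of 0.32, where 22.6% of all genes tested were higher and 24.1% lower. Inhba, whose product forms activin A, a ligand of the same receptors as myostatin, rose from 19.2 ± 0.568 to 56.4 ± 3.79 FPKM (SD, n = 3 each, log2 fold change 1.53, adjusted p = 3.43e-07 from limma). Fst, which codes for follistatin, the secreted trap of activins and myostatin, rose from 0.906 ± 0.321 to 5.44 ± 0.305 FPKM (2.10, adjusted p = 1.85e-05). An exon of Fst overlaps a gene on the other strand in the annotation.

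Tll1, a protease of the family that frees myostatin from its propeptide, had means of 0.955 and 4.63 FPKM and rose by 1.82 on the log2 scale (adjusted p = 1.52e-05 from limma). Smad7, the feedback inhibitor of the pathway, rose from 9.72 to 20.0 FPKM (1.01, adjusted p = 2.56e-06), and Smad4, the shared partner of receptor SMADs, fell from 30.3 to 26.7 FPKM (-0.18, adjusted p = 0.0353, and 0.0575 without the filter). Gdf11, the closest relative of Mstn, was among the genes that rose, from 5.42 to 8.39 FPKM (0.59, adjusted p = 0.000355). The type II receptors Acvr2a and Acvr2b were not called, with CON and 4H means of 5.73 and 5.50 FPKM for Acvr2a and 0.624 and 0.662 FPKM for Acvr2b.

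**Figure D4:**
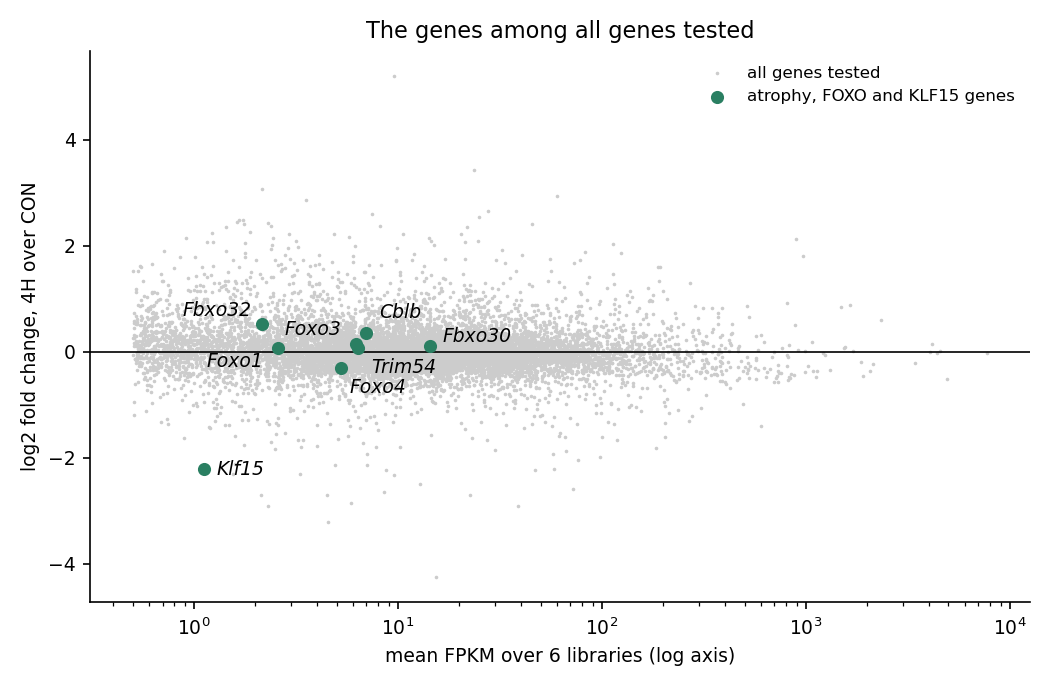
Log2 fold change (vertical axis, 4H over CON) against the mean FPKM over the 6 libraries (horizontal axis, logarithmic) for all 11593 genes tested, in grey, with the 8 tested genes of the atrophy set in green. Klf15 stands at the lower edge of the cloud at its level, and the other 7 lie within it.

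The genes that lead to FOXO were mixed. Of 18 tested genes of the IGF, PI3K and AKT arm, 7 rose (background 22.6%), 4 fell (background 24.1%) and 7 were not called, with a median of 0.11. Sgk1, a kinase related to AKT that also phosphorylates FOXO factors, rose from 46.99 ± 0.790 to 125.9 ± 3.40 FPKM (SD, n = 3 each, log2 fold change 1.41, adjusted p = 6.30e-08 from limma). Phlpp1, a phosphatase of AKT, rose from 5.28 to 9.05 FPKM (0.73), while Akt2 fell from 27.7 to 21.01 FPKM (-0.39) and Pik3r1, the regulatory subunit of PI3K, from 9.26 to 7.56 FPKM (-0.28). Of the Akt2 stretches of 75 bases, 6.06% recur in the pseudogene Akt2-ps. Irs1, the substrate of Cblb, was also called, at 22.3 and 29.6 FPKM (0.40, adjusted p = 0.000219). Igf1 and Igf2 were near 0, at 0.335 FPKM or less in every library.

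Among 28 modifiers and partners of FOXO proteins, all of which were tested, 8 rose (background 22.6%), 2 fell (background 24.1%) and 18 were not called. Of the 6 listed 14-3-3 genes, whose proteins hold phosphorylated FOXO in the cytoplasm, Ywhah rose from 108 to 143 FPKM (log2 fold change 0.40), Ywhaz rose from 290.3 to 358 FPKM (0.30) and Ywhag fell from 157 to 117 FPKM (-0.42). Ywhab, Ywhae and Ywhaq were not called (-0.02, 0.03 and 0.02). Kat2b, an acetyltransferase, rose (0.44) and Prmt1, an arginine methyltransferase, fell (-0.28). Of Ywhah stretches of 75 bases 5.54% recur in another gene, and of Kat2b stretches 3.12%. Foxo6, the remaining family member, was at 1.09 and 1.08 FPKM and was not called.

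Of 34 tested genes known as FOXO targets, 9 rose, 11 fell and 14 were not called, and the median log2 fold change was -0.04. The background was 22.6% higher and 24.1% lower. The differentially expressed targets also pointed both ways. Pdk4, a brake on glucose oxidation, rose from 1.52 ± 0.162 to 6.65 ± 0.335 FPKM (SD, n = 3 each, log2 fold change 1.83), and Trib1, a pseudokinase, from 3.92 to 10.3 FPKM (1.29). Gadd45a, a stress gene that also rises in denervated muscle, fell from 77.3 ± 4.595 to 16.2 ± 2.18 FPKM (-2.23, adjusted p = 7.94e-07 from limma), and an exon of it overlaps a gene on the other strand. Eif4ebp1, the repressor of cap-dependent translation, fell from 70.8 to 30.5 FPKM (-1.20).

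Of 29 other ubiquitin ligases and partners with a role in muscle, 21 were tested. Of these 21, 5 rose (background 22.6%), 6 fell (background 24.1%) and 10 were not called, and none was differentially expressed (background 3.88%). Trim55 (MuRF2), the remaining member of the MuRF family, measured 2.15, 2.11 and 2.21 FPKM in CON cells and 4.73, 4.11 and 3.44 FPKM in 4H cells, a log2 fold change of 0.78 (adjusted p = 0.000737 from limma). Within the MuRF family, then, Trim55 rose, Trim54 was not called and Trim63 was almost undetected, and a test of Trim55 against Trim54 was not made. Mdm2, the ligase of p53, rose from 41.4 to 61.1 FPKM (0.56). Fbxo31 and Ubr2, an N-end rule ligase, fell, with log2 fold changes of -0.47 and -0.38. Cbl, the paralog of Cblb, was called higher as well, at 9.07 and 11.3 FPKM (0.31).

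Around Klf15, the glucocorticoid list was split. Of its 19 tested genes, 6 rose (background 22.6%), 8 fell (background 24.1%) and 5 were not called, with a median log2 fold change of -0.16. Nr3c1, the receptor itself, was at 32.3 and 29.4 FPKM and was not called (adjusted p = 0.105 from limma). Angptl4, an inhibitor of lipoprotein lipase, rose from 6.67 ± 1.34 to 36.7 ± 10.5 FPKM (SD, n = 3 each, log2 fold change 2.36), and Errfi1, a feedback inhibitor of EGF receptors, from 25.1 to 85.6 FPKM (1.75). Cebpb and Ddit4, an inhibitor of mTORC1, fell by 0.80 and 0.72 on the log2 scale, and an exon of Cebpb overlaps a gene on the other strand. The receptor targets Fkbp5 and Tsc22d3 were called lower, by small amounts (-0.16 and -0.21), and without the filter Fkbp5 was not called (adjusted p = 0.0588 from limma).

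In a list of amino acid breakdown and transfer drawn up around KLF15, 10 genes were tested, of which 5 fell (background 24.1%), none rose (background 22.6%) and 5 were not called, with a median of -0.40. No test of a common direction was made on these 10 genes. Gpt2, a mitochondrial alanine aminotransferase, measured 104.2, 105.7 and 105.3 FPKM in CON cells and 28.99, 29.3 and 26.2 FPKM in 4H cells (log2 fold change -1.88, adjusted p = 7.74e-08 from limma). Slc1a5 fell from 35.9 to 17.4 FPKM (-1.02). Bcat2, the branched-chain aminotransferase of muscle mitochondria and an established KLF15 target, fell from 20.1 to 14.6 FPKM (-0.45, adjusted p = 0.000315), and Prodh, the proline oxidase, from 3.58 to 2.14 FPKM (-0.62, adjusted p = 0.00426). Bcat1 fell as well (-0.65). Bcat1 and Slc1a5 are not classical KLF15 targets, and several genes of this list also belong to other programmes of amino acid supply.

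**Figure D5:**
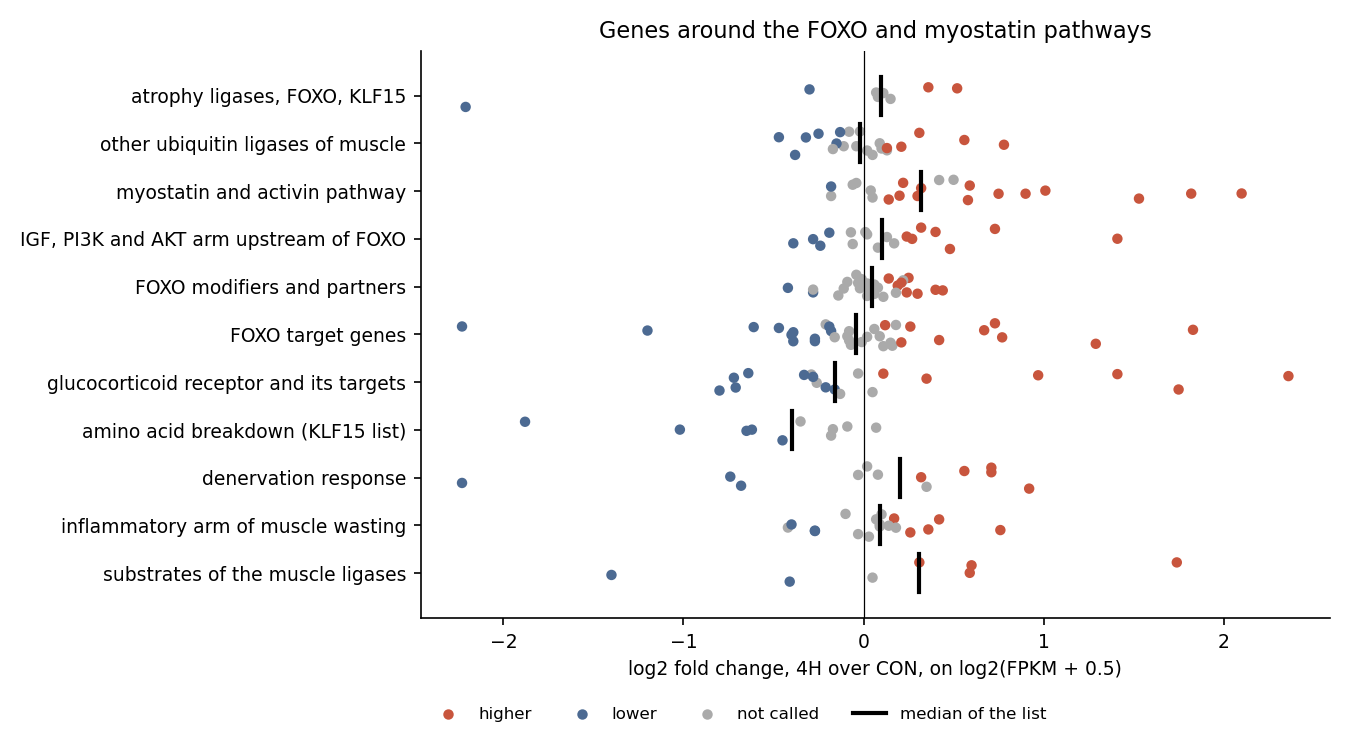
Log2 fold change (horizontal axis, 4H over CON, on log2(FPKM + 0.5)) of the tested genes of each list, with 1 point per gene, coloured by whether it was called higher or lower, and a black bar at the median of the list. The myostatin and activin list lies mostly above 0 (13 higher, 1 lower), and the amino acid breakdown list has calls below 0 only (5 lower).

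Of 12 tested genes of the denervation response, 5 rose (background 22.6%) and 3 fell (background 24.1%). Sik1, a kinase of class II histone deacetylases, and Chrna1, an acetylcholine receptor subunit, rose by log2 fold changes of 0.92 and 0.71, while the subunit Chrnd fell (-0.74), as did Gadd45a. Of 18 genes of the inflammatory arm of wasting, 5 rose, 3 fell and 10 were not called, against the same background. Tnfrsf12a, the TWEAK receptor that rises in wasting muscle, went from 186 ± 1.73 to 248 ± 3.75 FPKM (SD, n = 3 each, log2 fold change 0.42, adjusted p = 5.43e-06 from limma), and Nfkbia, an inhibitor of NF-kB, from 8.77 to 15.3 FPKM (0.76). Il6st and Tlr4 fell, with log2 fold changes of -0.40 and -0.27.

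Most substrates of the atrophy ligases are sarcomere proteins of fibers, and 7 of 20 were above the filter in these myoblasts. Of these 7, 4 rose (background 22.6%), 2 fell (background 24.1%) and 1 was not called. Without the filter 10 substrates were called in place of 6, the added ones being Tnni1, Ttn, Tnnt3 and Myh7, all higher in the 4H group at means of 0.363 to 0.522 FPKM, with Myh7 listed at 0 in the CON libraries. In that fit 5565 of all 16576 genes were called, and 53.3% of these calls were higher in the 4H group. Rows above 0 numbered 14186, 14125 and 14138 in the CON libraries and 14972, 14964 and 14899 in the 4H libraries. Whether this general difference accounts for the added calls was not tested. Both named substrates of Fbxo32 changed, in opposite directions. Myod1, the myoblast determination factor, measured 5.37, 4.48 and 5.55 FPKM in CON cells and 18.5, 17.4 and 18.8 FPKM in 4H cells (log2 fold change 1.74, adjusted p = 1.56e-06 from limma). Eif3f, a translation initiation subunit, fell from 50.9 to 38.3 FPKM (-0.41). Sqstm1, the autophagy adaptor p62 that works with MuRF1 at the sarcomere, fell from 877 ± 31.3 to 332 ± 7.91 FPKM (-1.40), and an exon of it overlaps a gene on the other strand, while Vim rose (0.60).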

How the data were processed

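RNA-seq of C2C12 cells was analysed from 3 CON and 3 4H libraries, grouped by the labels. The authors deposited FPKM values, 1 column per library, made from strand-specific poly(A) libraries read as paired ends. The submitters' processing notes name the build mm10, while for the aligner and the counter the entry is: not given in the sources used here. Among 22128 Ensembl identifiers of the table, 22017 are in GENCODE M21 (GRCm38), which gave positions, exon overlaps and shared 75-base stretches.

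Read totals cannot be taken from FPKM, and no counting interval was computed. Log2 values correlated at 0.992 to 0.993 within groups and 0.967 to 0.970 between them. No count model was run. limma 3.58.1 in R 4.3.3 was fitted with a trend on all genes with a mean of 0.5 FPKM or more. Plots used Python 3.11.15 and matplotlib 3.10.9.

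The genes and lists were chosen with earlier results of these data known, so no list was given a test. Named genes are the 10 genes of the set, the differentially expressed genes of each list, the 2 largest called changes in each direction of each list, and the 3 genes most correlated with the lowest-p gene. Irs1, Igf1, Igf2, Gdf11, Ywhab, Ywhae, Ywhaq, Ywhaz, Acvr2a, Acvr2b, Foxo6, Cbl, Nr3c1, Fkbp5, Tsc22d3, Bcat1, Bcat2, Prodh and the other marker and substrate genes named for their level were added after their values were seen. Alternatives were other pseudocounts, filters and scalings, a replicate block, fits without a trend or with array weights, and each library left out.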

Additional observations from a re-analysis of the deposited data

How the results depend on the processing

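Of the 17 alternatives, the filter at a mean of 5 FPKM changed the counts most, since it removes Klf15, Fbxo32 and Foxo1: 2 genes of the atrophy set were called, 1 higher and 1 lower, and 0 were differentially expressed. At that filter 4448 of all 8622 genes tested were called. Leaving out 1 library at a time, the genes called numbered 3 to 4 and those called lower 1 to 2, the loss being Foxo4 without CON replicate 1. Calls over all genes numbered 4638 to 4882 in these fits, against 5409 in the main fit. Fbxo30 was called with libraries rescaled to TPM (adjusted p = 0.0364 from limma) and Foxo3 without the trend (adjusted p = 0.0436), both higher. The calls of Klf15, Cblb and Fbxo32 held wherever they passed the filter, with log2 fold changes from -3.70 to -1.55, 0.32 to 0.41 and 0.43 to 0.62. The other lists had 193 tested genes, of which 111 were called in the main fit (background 46.7%). That number ranged from 96 to 116 over the alternatives. Over all genes, the calls ranged from 4448 of 8622 with the filter at 5 FPKM to 5565 of 16576 without a filter. Without a filter, 10 ligase substrates were called in place of 6, and 2 endothelial, blood and epithelial markers in place of 1. With the filter at 5 FPKM, 1 fibroblast or adipogenic marker was called in place of 3. The calls among myotube markers numbered 2 in 7 of 17 alternatives, and were 6 without a filter, 4 with TPM, 1 with the filter at 1 FPKM, and 0 with the filter at 5 FPKM and with quantile normalization. Leaving out 1 library gave 0 to 2, with 0 without 4H replicate 2 and 1 without CON replicate 1, 2 or 3 or 4H replicate 1. CON and 4H libraries with the same number in their descriptions did not deviate together (correlations 0.0250, -0.0929 and -0.126), and with a replicate block the set still had 4 calls, Klf15 at an adjusted p of 0.000167. A block by the numbers in the titles, which differ in the 4H group, was not run. Depth cannot be read from FPKM, so how many fragments lie behind the Klf15 and Trim63 values in the 4H group is unknown, and the 3 libraries per group set the precision.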
